A study of Homo sapiens with 6 samples.

Results

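Mitosis genes, the 45 genes for the kinases, checkpoint proteins, kinetochore parts, motors and cytokinesis proteins with which a cell divides its chromosomes, were chosen by name. A probe set belonged to a member where the platform annotation gave it that single gene symbol, which held for 91 of the array's 54675 probe sets. All 45 had a probe set over 4 on the log2 scale, the detection level used here, in at least 3 of the 6 arrays, so that the filter on low values removed no member, and 81 of their 91 probe sets were tested. In all, 10814 genes were tested. The cell line, MDA-MB-231, comes from a human breast cancer and has a mesenchymal-like character. The 3 arrays labelled GATA3 came from cells transduced with a lentivirus for GATA3 and enhanced green fluorescent protein (GFP), and the 3 control arrays from cells transduced with a lentivirus for GFP alone. Both populations had been sorted for GFP, plated at 1500000 cells per dish in medium with 10% serum, and harvested after 2 days. The promoter that drives the transgenes and whether either population was a single clone are not given in the sources used here. Nothing in the labels says whether the 3 arrays of a group came from separate cultures, so a p-value reflects the spread among the arrays alone, and that spread may be technical.

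Entry into mitosis is driven by cyclin A and cyclin B bound to the kinase CDK1, which CDC25 phosphatases switch on. The spindle checkpoint holds the anaphase-promoting complex in check until every kinetochore is attached, after which securin and the cyclins are destroyed and separase cuts cohesin. Most of the genes are transcribed late in the cycle, through promoter elements bound by the MuvB complex with B-MYB and FOXM1 and by NF-Y, and their summed expression is widely read as a measure of proliferation in breast cancer.

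Stretches of 5 promoters are shown to set matches to these elements beside what the genes did: KIF11, KIF20A and CDCA8 fell, KIF4A rose and MKI67 did not pass the test. Each is the 120 bases before the gene start in RefSeq, build GRCh38.p14, written along the gene's strand, with capitals for TTTGAA (the cell cycle genes homology region, CHR) and CCAAT (the NF-Y box) on either strand, so that TTCAAA and ATTGG also appear. The stretch of KIF11 is chr10:92593010-92593129 on the plus strand, that of KIF20A chr5:138178992-138179111 on the plus strand, that of CDCA8 chr1:37692396-37692515 on the plus strand, that of KIF4A chrX:70289984-70290103 on the plus strand and that of MKI67 chr10:128126424-128126543 on the minus strand.
KIF11: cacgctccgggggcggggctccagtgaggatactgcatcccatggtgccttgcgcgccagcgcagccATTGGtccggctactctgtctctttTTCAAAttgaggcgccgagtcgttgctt
KIF20A: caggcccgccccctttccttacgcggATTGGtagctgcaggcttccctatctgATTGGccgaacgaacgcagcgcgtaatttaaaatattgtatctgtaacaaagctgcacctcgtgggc
CDCA8: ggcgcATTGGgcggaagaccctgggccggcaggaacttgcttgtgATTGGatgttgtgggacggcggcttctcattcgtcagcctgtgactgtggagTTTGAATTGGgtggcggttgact
KIF4A: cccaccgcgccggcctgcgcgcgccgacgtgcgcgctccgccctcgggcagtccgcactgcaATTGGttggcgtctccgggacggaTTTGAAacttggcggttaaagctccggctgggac
MKI67: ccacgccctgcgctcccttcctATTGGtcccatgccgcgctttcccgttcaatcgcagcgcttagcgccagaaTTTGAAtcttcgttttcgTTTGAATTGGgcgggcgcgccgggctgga
The KIF20A stretch holds NF-Y matches at -94 and -67 and no CHR match. In CDCA8 and MKI67 a CHR match and an NF-Y match overlap by their shared A. KIF11, which fell, and KIF4A, which rose, had the same pair of matches at much the same places. The CHR match began at -28 in KIF11 and at -34 in KIF4A, and the NF-Y match at -53 in KIF11 and at -58 in KIF4A, counted from the gene start.

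Of the 45 members, 38 had a promoter window in the RefSeq table, from 250 bases before to 50 after the gene start. FOXM1, BIRC5, BUB3, UBE2C, TTK, TPX2 and AURKA had none there. TTTGAA or TTCGAA on either strand was found for 30 of the 38 (78.9%), against 5336 of 27305 genes of the whole table (19.5%) and 1406 of 8944 tested genes with a window (15.7%). CCAAT was found for 32 of the 38 (84.2%), against 39.7% of the whole table and 43.6% of tested genes. Both kinds together were found for 25 (65.8%), against 7.85% of the whole table and 6.6% of tested genes. The E2F motifs TTCGCGC and TTGGCGC were found for 6 (15.8%), against 6.1% of the whole table and 10.5% of tested genes. By expression, a CHR match was found for 6 of the 9 lower members with a window (66.7%), for KIF4A, and for 23 of the 28 that did not pass (82.1%). A match is a string of letters and says nothing of binding in these cells.

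**Figure D1:**
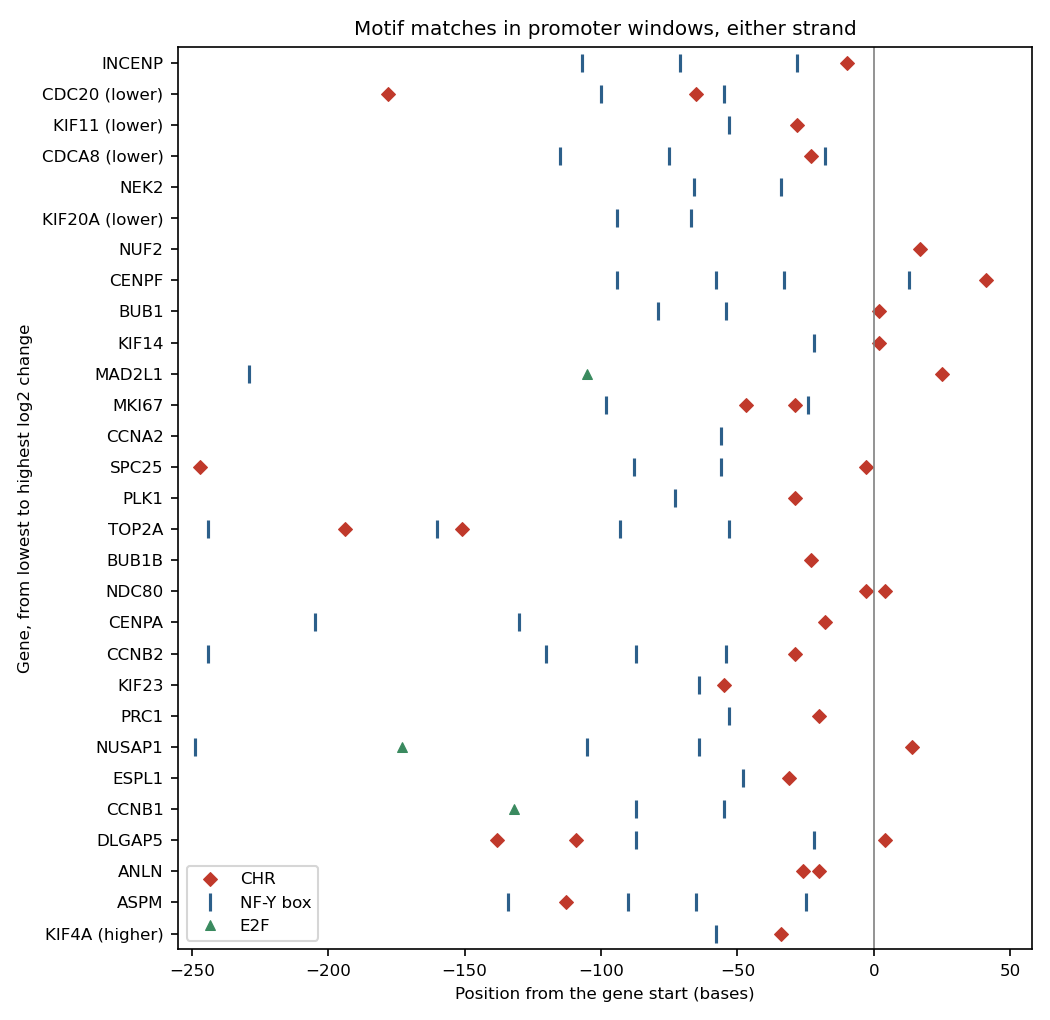
Positions of motif matches from the gene start, in bases, for the 29 mitosis genes with 1 promoter window and at least 1 match, ordered from the lowest to the highest log2 change (arrays labelled GATA3 minus GFP control arrays). Diamonds are CHR, vertical bars NF-Y boxes and triangles E2F motifs. KIF11, called lower, and KIF4A, called higher, both have a CHR match within 50 bases before the start and an NF-Y box just upstream of it, as have PLK1 and PRC1, which did not pass.

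Before the results, 2 points bear on the labels. GATA3 itself was lower in the arrays labelled GATA3, at 7.93, 7.94 and 7.32 against 9.37, 9.35 and 9.45 in the GFP control (log2 change -1.66, SE 0.18, adjusted p 0.00238), so the readings go against the label, and whether the probe set reads the introduced sequence is not known. Every direction below rests on the labels. By the raw-file names, GATA3 replicate 3 has another date than the 5 other arrays. It correlated with the other two arrays of its group at 0.984 and 0.986, against 0.997 between those. All 6 markers of a mesenchymal-like line (VIM, CD44, CAV1, AXL, LGALS1 and ANXA1) were bright, from 12.70 to 15.06 on every array, and all 8 markers of blood, endothelial, liver and muscle cells with a probe set lay at or under 2.49.

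By the brightest tested probe set of each gene, mitosis genes were slightly lower in the arrays labelled GATA3, and none changed by a large factor. By these probe sets, 11 of the 45 members fell, 1 rose and 33 did not pass limma's test at an adjusted p of 0.05. Lower calls thus made up 24.4% of the members, against 14.5% of all 10814 tested genes, and the higher call 2.22%, against 14.8% of all tested genes. The falls ran from 1.17-fold to 1.34-fold, a log2 size of 0.226 to 0.419, where the median size of all genes that fell was 0.520 on the log2 scale. A log2 change over 0.5 in size was seen in 1 member, the dim gene INCENP, which did not pass the test, against 20.1% of all tested genes. Among all 81 tested probe sets of the members, 6 had a change over 0.5 in size. The largest was -1.93, in a dim second probe set of AURKB. The median log2 change was -0.15 over the members and -0.02 over all tested genes, and 36 members had a negative and 9 a positive change. In RNA from whole cultures, fewer cells in mitosis and less RNA per mitotic cell cannot be told apart.

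The same lean was seen array by array. The median difference from the mean of the GFP control arrays, over the 45 members, was -0.10, -0.11 and -0.17 on the log2 scale in the 3 arrays labelled GATA3. Over all tested genes it was 0.00, -0.01 and -0.06 in the same arrays. In the 3 GFP control arrays the member median was 0.00, 0.01 and -0.02, held near 0 because their own mean was subtracted. All 3 arrays labelled GATA3 lay under all 3 control arrays for 23 members (51.1%, against 27.2% of all tested genes), and over them for 3 (6.67%, against 22.2%).

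**Figure D2:**
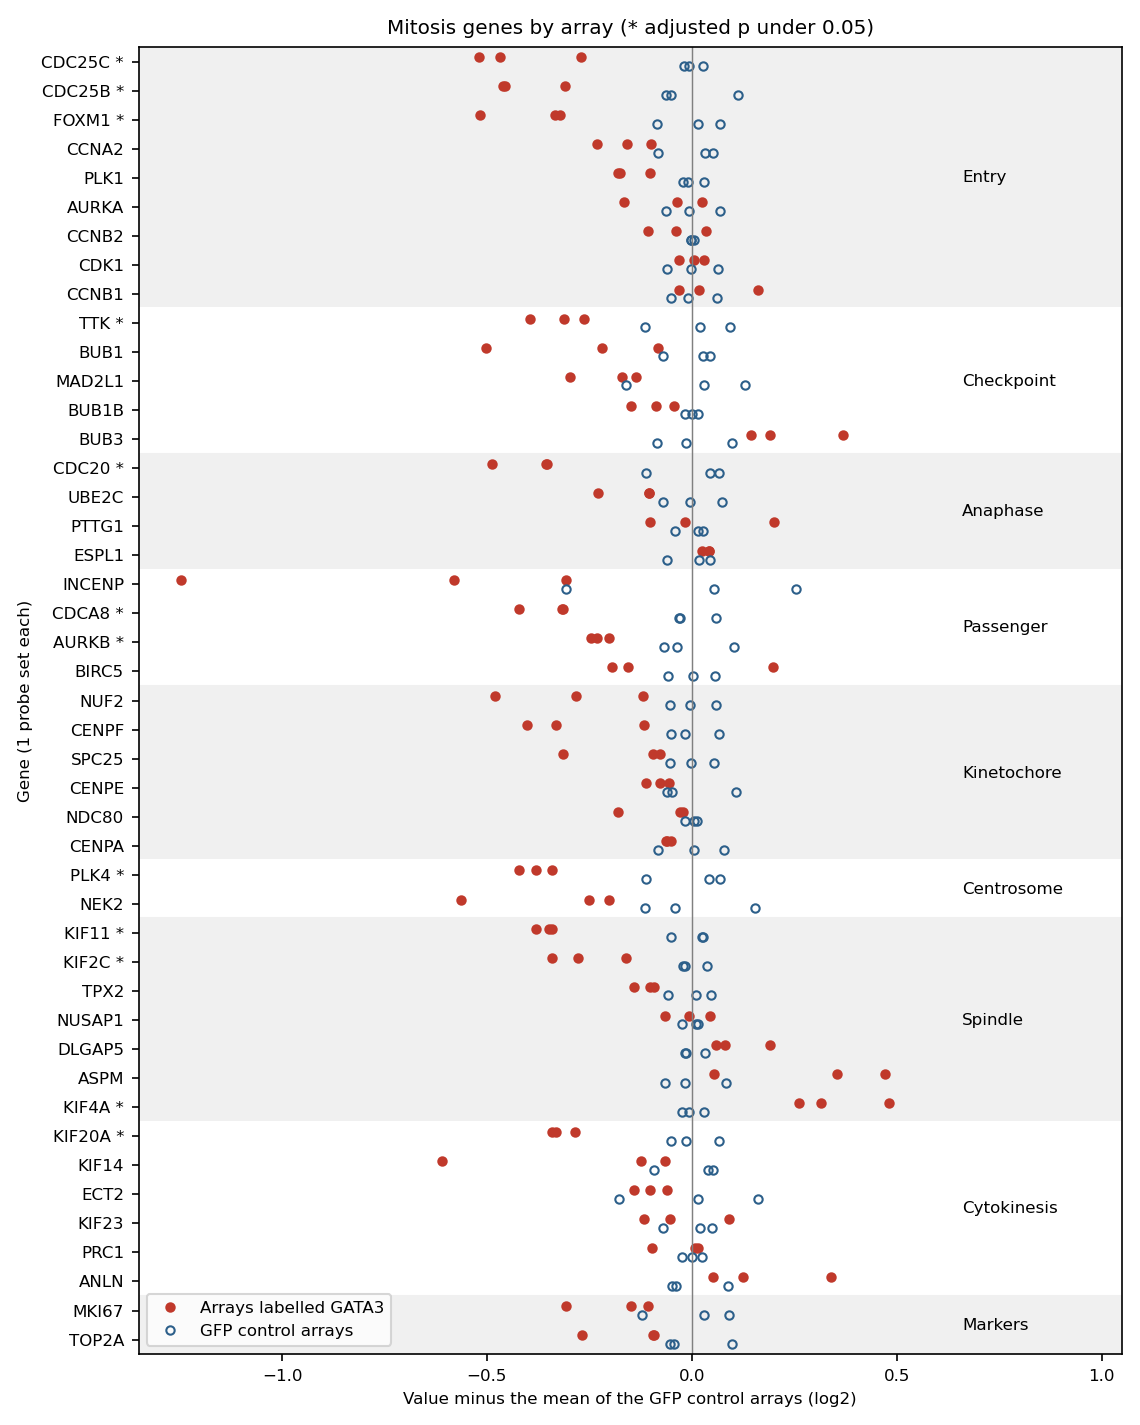
Each mitosis gene's value on every array minus the mean of its GFP control arrays, in log2 units, by role. Filled points are the 3 arrays labelled GATA3 and open points the 3 GFP control arrays, and an asterisk marks an adjusted p under 0.05. The 11 genes called lower have all filled points left of the open ones, and KIF4A has all of them to the right.

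How many members passed depended on which arrays entered the fit. Without GATA3 replicate 3, which leaves arrays of 1 raw-file date, 11 were lower and 2 higher, with a median of -0.12. Without GFP control replicate 2 only 6 were lower, and without GFP control replicate 3 it was 7. Leaving out either of these controls left 0 higher members, with 1 and 2 at an unadjusted p under 0.05. The calls of KIF11, KIF20A, CDCA8, CDC20 and CDC25B passed in all 6 fits with 1 array left out, and those of the 7 other members did not. Without the filter on low values the calls of FOXM1 (adjusted p 0.0555), TTK (0.0754), AURKB (0.0906), KIF2C (0.0701) and KIF4A (0.0515) ended.

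Among the 9 genes for entry into mitosis, 3 fell and 6 did not pass, while none rose by limma (0 at an unadjusted p under 0.05). Beside the counts by role here and below, 14.5% of all tested genes fell and 14.8% rose. CDC25C, a phosphatase that activates CDK1, read 9.17, 8.97 and 8.92 in the arrays labelled GATA3, against 9.47, 9.43 and 9.42 in the GFP control. Its log2 change was -0.42 (SE 0.08, adjusted p 0.0152), the largest fall among the members called. That call ended without GATA3 replicate 2 (adjusted p 0.0586) and without GFP control replicates 1, 2 or 3 (0.0596, 0.0600 and 0.0564), although the groups did not overlap. CDC25B, a phosphatase of the same family that acts earlier, read 10.43, 10.42 and 10.57 in the arrays labelled GATA3, against 11.00, 10.83 and 10.82 in the GFP control. Its fall of 0.41 on the log2 scale (SE 0.07, adjusted p 0.0118) was seen in all 3 arrays. FOXM1, the transcription factor that activates many genes of this set, read 10.18, 10.16 and 9.98 in the arrays labelled GATA3, against 10.57, 10.41 and 10.52 in the GFP control. It fell by 0.39 on the log2 scale (SE 0.07, adjusted p 0.0158), a call that ended without GFP control replicates 1 or 3 (adjusted p 0.0595 and 0.0647).

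By their brightest probe sets, none of the kinases and cyclins of entry passed the test, though CCNA2 and PLK1 had an unadjusted p under 0.05 by limma. CDK1, the kinase that drives mitosis, read 12.73, 12.79 and 12.77 in the arrays labelled GATA3 and 12.70, 12.76 and 12.82 in the GFP control by its brightest probe set. The groups overlapped fully, with a log2 change of 0.00 (SE 0.04, adjusted p 0.987). CCNB1, cyclin B1, read 13.21, 13.16 and 13.35 in the arrays labelled GATA3 and 13.18, 13.14 and 13.25 in the GFP control (adjusted p 0.570). CCNB2 changed as little, with a log2 difference of -0.04 (adjusted p 0.540). The other CCNB1 probe set, 228729_at, gave -0.185, with an unadjusted p of 0.0409 by limma and an adjusted p of 0.112. CCNA2, cyclin A2, had a difference of -0.16 (adjusted p 0.0814), with the 3 arrays labelled GATA3 all under the control arrays. PLK1, a kinase of mitotic entry and spindle assembly, read 8.98, 9.06 and 8.99 in the arrays labelled GATA3, against 9.15, 9.19 and 9.14 in the GFP control. Its groups did not overlap, but its difference of -0.15 (SE 0.05) did not pass (adjusted p 0.0897). AURKA, the centrosomal Aurora kinase, read 12.72, 12.79 and 12.60 in the arrays labelled GATA3, against 12.83, 12.76 and 12.70 in the GFP control, with overlap and an adjusted p of 0.509.

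Of the 5 genes of the spindle checkpoint, TTK alone passed, and it fell. TTK, the kinase that recruits checkpoint proteins to unattached kinetochores, read 10.31, 10.18 and 10.26 in the arrays labelled GATA3, against 10.46, 10.67 and 10.59 in the GFP control. The log2 change was -0.32 (SE 0.07, adjusted p 0.0241), and the call ended without GATA3 replicate 2 (0.0788) and without GFP control replicates 2 or 3 (0.0790 and 0.0883). BUB1, a kinase of the checkpoint, read 12.20, 12.06 and 11.78 in the arrays labelled GATA3, against 12.21, 12.31 and 12.33 in the GFP control. Its lowest value was that of GATA3 replicate 3, and its difference of -0.27 (SE 0.11) had an adjusted p of 0.139. BUB1B differed by -0.09 (adjusted p 0.142) and MAD2L1, which binds and inhibits CDC20, by -0.20 (adjusted p 0.146). BUB3, the partner of BUB1 and BUB1B, had the opposite sign by its brightest probe set, 0.23 (adjusted p 0.0776).

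CDC20 was the clearest of the 4 genes around the anaphase-promoting complex. It encodes the activator that the checkpoint restrains, and it read 12.85, 12.85 and 12.72 in the arrays labelled GATA3, against 13.27, 13.25 and 13.09 in the GFP control. This was a log2 change of -0.40 (SE 0.06, adjusted p 0.00904), or 1.32-fold lower. UBE2C, which encodes a ubiquitin-conjugating enzyme of that complex, differed by -0.15 (adjusted p 0.107). PTTG1, securin, and ESPL1, separase, differed by 0.03 (adjusted p 0.821) and 0.04 (adjusted p 0.606).

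In the chromosomal passenger complex, which corrects faulty attachments and later steers cytokinesis, 2 of 4 subunits fell. CDCA8, borealin, read 11.25, 11.25 and 11.14 in the arrays labelled GATA3, against 11.62, 11.54 and 11.53 in the GFP control. Its log2 change was -0.35 (SE 0.05, adjusted p 0.0055). AURKB, the complex's kinase, averaged 11.33 ± 0.02 in the arrays labelled GATA3 and 11.55 ± 0.09 in the GFP control (SD, n = 3 each), a log2 change of -0.23 with an adjusted p of 0.0322. The call of AURKB was lost without GATA3 replicates 1, 2 or 3 (0.0879, 0.0806 and 0.0575) and without GFP control replicate 2 (0.0803). It was also lost after cyclic loess normalization (0.0506), with every array set to the same 75th percentile (0.0595) and without the intensity trend (0.0519). BIRC5, survivin, differed by -0.05 (adjusted p 0.762), but by -0.18 without GATA3 replicate 3, which passed (adjusted p 0.0445). INCENP, the scaffold of the complex, read 5.25, 4.98 and 4.31 in the arrays labelled GATA3, against 5.25, 5.61 and 5.81 in the GFP control. These are values close to the detection level, and the difference of -0.71 (SE 0.28) did not pass (adjusted p 0.121).

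None of the 6 kinetochore and centromere genes passed limma's test by its brightest probe set, and 2 had an unadjusted p under 0.05. They were CENPF, a large kinetochore protein that peaks late in the cycle, with a log2 difference of -0.28 (adjusted p 0.0571), and NUF2, with -0.29 (adjusted p 0.0794). NUF2, NDC80 and SPC25 are subunits of the NDC80 complex, which binds the microtubule. NDC80 differed by -0.08 (adjusted p 0.324) and SPC25 by -0.16 (adjusted p 0.177). In all 3 subunits every array labelled GATA3 lay under every control array, which held for 27.2% of all tested genes. For NDC80 the margin was slight, with 11.844 in GATA3 replicate 1 against 11.848 in GFP control replicate 3. CENPA, the centromeric histone, differed by -0.06, and CENPE, a kinetochore motor, by -0.08. CENPF passed without GATA3 replicate 1 (adjusted p 0.0167), and NUF2 without GATA3 replicate 2 (0.0388). After quantile normalization both passed, CENPF at 0.0227 and NUF2 at 0.0394.

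Both centrosome kinases had negative changes. PLK4, which starts centriole duplication, averaged 9.66 ± 0.04 in the arrays labelled GATA3 and 10.04 ± 0.10 in the GFP control (SD, n = 3 each). It fell by 0.38 on the log2 scale (SE 0.07, adjusted p 0.0108), with the call lost without GFP control replicate 2 (0.0504). Its other two probe sets gave -0.44 (adjusted p 0.0167) and -0.47 (adjusted p 0.0514). NEK2, which separates the centrosomes, differed by -0.34 (adjusted p 0.0971), but by only -0.03 by its other probe set (adjusted p 0.877), where the groups overlapped.

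Of the 7 spindle genes 2 were lower and 1 higher, few genes to set against the 14.5% and 14.8% of all tested genes. KIF11, the motor that pushes spindle poles apart, had the lowest adjusted p of all members. It read 11.39, 11.43 and 11.44 in the arrays labelled GATA3, against 11.73, 11.80 and 11.80 in the GFP control. The groups were well apart, with a log2 change of -0.36 (SE 0.04, adjusted p 0.00208) and 1.28-fold lower expression. KIF2C, a microtubule-depolymerising kinesin of the centromere, had a log2 change of -0.26 (adjusted p 0.0220), and of -0.35 by its other probe set (adjusted p 0.0234). The call of its brightest probe set was lost without GATA3 replicate 2 (0.0757) and without GFP control replicates 1, 2 or 3 (0.0628, 0.0729 and 0.0821).

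KIF4A, a chromosome-bound kinesin that shortens the spindle midzone and works with condensin, was the single member called higher. It read 11.16, 10.99 and 10.94 in the arrays labelled GATA3, against 10.70, 10.67 and 10.65 in the GFP control. All 3 arrays labelled GATA3 lay over the controls, and the log2 change was 0.35 (SE 0.07, adjusted p 0.0147), or 1.28-fold. That call ended without GFP control replicates 2 or 3 (adjusted p 0.0608 and 0.0615). ASPM, a protein of the spindle poles, differed by 0.29 (adjusted p 0.119). It passed without GATA3 replicate 3 (log2 change 0.41, adjusted p 0.0119), after cyclic loess (0.0455) and with a common 75th percentile (0.0268). It did not pass in the other fits with 1 array left out. Its other probe sets, 232238_at and 239002_at, gave 0.09 (adjusted p 0.838) and -0.08 (adjusted p 0.863), with overlap between the groups. DLGAP5 differed by 0.11, TPX2, which activates AURKA on the spindle, by -0.11, and NUSAP1 by -0.01, none of which passed.

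Of the 6 genes of the midzone and cytokinesis, KIF20A alone passed. KIF20A, the kinesin that carries the passenger complex to the midzone, read 11.57, 11.56 and 11.61 in the arrays labelled GATA3, against 11.97, 11.89 and 11.85 in the GFP control. It fell by 0.32 on the log2 scale (SE 0.04, adjusted p 0.00482). The bundling protein PRC1 differed by -0.02 (adjusted p 0.690), the kinesin KIF23 by -0.03 (0.792) and the exchange factor ECT2 by -0.10 (0.438). KIF14 differed by -0.27 (adjusted p 0.254), and by -0.37 to -0.09 with 1 array left out. Its lowest value, 11.13, was that of GATA3 replicate 3. By its other probe set, 236641_at, KIF14 differed by -0.42 (adjusted p 0.0862). The actin-binding anillin, ANLN, differed by 0.17 (adjusted p 0.192).

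The markers read most often as proliferation, MKI67 and TOP2A, did not pass. MKI67, which encodes the Ki-67 antigen, read 12.27, 12.23 and 12.07 in the arrays labelled GATA3, against 12.41, 12.47 and 12.26 in the GFP control. There was slight overlap, and the log2 difference of -0.19 (SE 0.08) had an adjusted p of 0.139. Its other three probe sets gave -0.21, -0.17 and -0.09, so that all 4 were negative and none passed. MKI67 did pass with the mean of its tested probe sets (log2 change -0.17, adjusted p 0.0317) and with array weights (-0.16, adjusted p 0.0377). TOP2A, topoisomerase II alpha, read 13.38, 13.38 and 13.20 in the arrays labelled GATA3, against 13.42, 13.57 and 13.43 in the GFP control. Its groups did not overlap, and its difference of -0.15 (SE 0.07) had an adjusted p of 0.161. With limma, 0 of these 2 markers had an unadjusted p under 0.05 by the brightest probe set. The MKI67 probe set at -0.21 had an unadjusted p of 0.0436 by limma. The other tested probe sets of TOP2A gave -0.05 (adjusted p 0.273) and, for the dim 237469_at, -1.07 (unadjusted p 0.0491, adjusted p 0.127). Neither passed.

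Probe sets of 1 gene did not always move together. Of the 81 tested probe sets, 16 were lower (19.8%, against 14% of all tested probe sets) and 5 higher (6.17%, against 11.3%). More than 1 was tested for 23 members, and for 8 of these the log2 changes had both signs. BUB3 was the only member with calls in opposite directions. Its probe set 201457_x_at read 13.41, 13.41 and 13.52 in the arrays labelled GATA3, against 13.28, 13.19 and 13.12 in the GFP control, a rise of 0.25 (adjusted p 0.0236). Its probe set 201458_s_at read 12.05, 12.15 and 12.04 in the arrays labelled GATA3, against 12.24, 12.21 and 12.24 in the GFP control, a fall of 0.15 on the log2 scale (adjusted p 0.0469). The direction of BUB3 was therefore not settled by these arrays. The rise was lost without GATA3 replicates 1 or 2 (0.0521 and 0.0601) or GFP control replicates 2 or 3 (0.0849 and 0.0685). The fall was lost in 5 of the 6 such fits, with adjusted p-values of 0.118 without GATA3 replicate 1, 0.0747 without GATA3 replicate 3, and 0.124, 0.115 and 0.130 without GFP control replicates 1, 2 and 3.

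CDK1, level by its brightest probe set, was higher by 2 others. Probe set 210559_s_at averaged 12.69 ± 0.03 in the arrays labelled GATA3 and 12.31 ± 0.11 in the GFP control (SD, n = 3 each), a log2 change of 0.38 (adjusted p 0.00948). Probe set 203214_x_at gave 0.34 (adjusted p 0.00968), and both calls held in all 6 fits with 1 array left out. ANLN rose by 0.33 by its second probe set (adjusted p 0.00533), which also held in all 6. CENPF fell by 0.40 on the log2 scale by 209172_s_at (adjusted p 0.0128), a call lost without GFP control replicates 2 or 3 (0.0534 and 0.0514). AURKB had a dim second probe set, 239219_at, at 6.86, 6.14 and 5.02 in the arrays labelled GATA3, against 7.50, 8.38 and 7.94 in the GFP control. Its change of -1.93 (SE 0.50, adjusted p 0.0410) was far larger than the -0.23 of the brighter one. That call was lost without GATA3 replicate 2 (0.100) and without GFP control replicates 1, 2 or 3 (0.0790, 0.134 and 0.123). With the mean of a gene's tested probe sets in place of the brightest, CDK1 passed at 0.24 (adjusted p 0.0056), ANLN at 0.25 (0.0212), CENPF at -0.72 (0.0228), CCNA2 at -0.21 (0.0296) and BUB1 at -0.17 (0.0460). The CENPF mean took in a dim probe set, 207331_at. This probe set read 5.9, 5.9 and 4.9 in the arrays labelled GATA3, against 6.6, 7.8 and 6.7 in the GFP control. Its change of -1.475 (SE 0.43) did not pass (adjusted p 0.0569), while the brighter CENPF probe sets gave -0.28 and -0.40. Counting any tested probe set, 12 members had only lower calls, 3 had only higher calls (KIF4A, CDK1 and ANLN), and BUB3 had both.

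**Figure D3:**
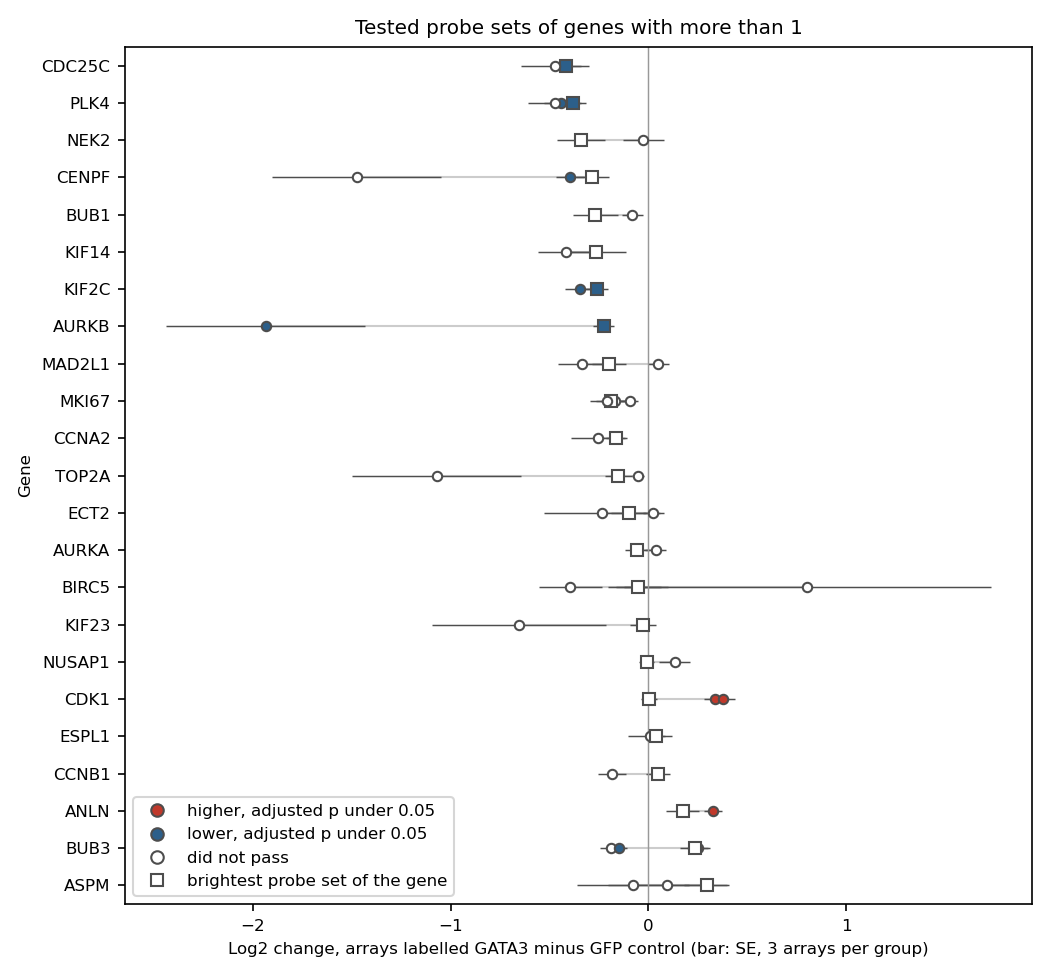
Log2 change of every tested probe set, with its SE from 3 arrays per group, for the 23 mitosis genes with more than 1 tested. Squares are the brightest probe set of a gene, and fill shows the call at an adjusted p of 0.05. CDK1 has its brightest probe set at 0.00 and 2 others called higher, BUB3 has a lower call and a higher call, that one hidden behind its square, and the dim second probe set of AURKB lies at -1.93.

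Further mitosis genes were taken from a list of 114, of which 110 were measured. Of these 27 fell (24.5%, against 14.5% of all tested genes), 7 rose (6.36%, against 14.8%) and 76 did not pass. The median log2 change was -0.10. Without GFP control replicates 2 and 3 in turn the lower count was 13 and 15, and without GATA3 replicate 3 it was 30. The higher count was 4 without GATA3 replicate 1, 2 without GATA3 replicate 2, 4 without GFP control replicate 1 and 2 without GFP control replicate 2. Other spindle, centrosome and cytokinesis genes held 13 of the 27 falls, among 28 measured (46.4%, against 14.5% of all tested genes), with 1 rise (3.57%, against 14.8%). HMMR, a spindle-associated protein, had a log2 change of -0.74 (adjusted p 0.00281). Of 30 other kinetochore genes 5 fell (16.7%, near the 14.5% of all tested genes) and 1 rose (3.33%, against 14.8%). MAD1L1, which anchors MAD2L1 at the kinetochore, changed by -0.78 (adjusted p 0.00131) and SKA3 by -0.54 (adjusted p 0.00824).

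Condensin and cohesin, the rings that shape chromosomes and hold sister chromatids together, had calls in both directions. Of 8 condensin genes 2 fell (25.0%) and 1 rose (12.5%), against 14.5% and 14.8% of all tested genes. NCAPD2 changed by -0.74 on the log2 scale (adjusted p 0.00456) and NCAPG, another subunit of the same complex, rose by 0.30 (adjusted p 0.00303). SMC4 changed by -0.25 (adjusted p 0.0344), a call lost without GATA3 replicates 2 or 3 (0.103 and 0.0532) and without GFP control replicates 1, 2 or 3 (0.0867, 0.0888 and 0.113). Of 13 cohesin genes 3 fell (23.1%) and 1 rose (7.69%), with STAG1 at -0.93 (adjusted p 0.00732) and the ring subunit SMC3 at -0.58 (adjusted p 0.00253). The anaphase-promoting complex itself had 2 of 16 genes lower (12.5%, near the 14.5% of all tested genes). None was higher (against 14.8%), with 0 at an unadjusted p under 0.05 in the higher direction by limma. CDC26, a small subunit of it, changed by -0.55 (adjusted p 0.00229). Of 15 other regulators of entry and exit 3 were higher (20.0%) and 2 lower (13.3%), shares near those of all tested genes (14.8% and 14.5%). The phosphatase gene CDC14B changed by 0.37 (adjusted p 0.00968) and BORA, which helps AURKA activate PLK1, by -0.47 (adjusted p 0.00766). The calls of NCAPD2, NCAPG, STAG1, SMC3, CDC26, CDC14B, BORA, HMMR, MAD1L1 and SKA3 held in all 6 fits with 1 array left out. With the mean of a gene's probe sets CDC14B was at 0.10 (adjusted p 0.368) and SMC3 at -0.58 (0.0506), and SMC3 also failed with the suffix _at alone (0.284).

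Among transcription regulators of the cell cycle, 5 of the 20 with a tested probe set were lower (25.0%, against 14.5% of all tested genes) and 2 higher (10.0%, against 14.8%), with a median of -0.18. MYBL2, which encodes B-MYB, averaged 10.27 ± 0.08 in the arrays labelled GATA3 and 9.59 ± 0.04 in the GFP control (SD, n = 3 each). It rose by 0.68 on the log2 scale (adjusted p 0.00101) in all 6 fits with 1 array left out, in the same arrays in which FOXM1 fell. RBL1, the pocket protein p107, changed by -0.73 (adjusted p 0.0291) and the NF-Y subunit gene NFYC by -0.54 (adjusted p 0.0113). The call of RBL1 was lost without GATA3 replicate 2 (0.0514) and without GFP control replicates 1, 2 or 3 (0.0635, 0.105 and 0.103), as well as without the filter on low values (0.116), and that of NFYC without GFP control replicate 3 (0.0514).

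Genes of S phase, in which DNA is copied ahead of mitosis, were also called lower more often than higher. Lower calls numbered 13 of 47 (27.7%, against 14.5% of all tested genes), higher calls 3 (6.38%, against 14.8%), and 31 did not pass, with a median log2 change of -0.11. Their lower count was 6 without GATA3 replicate 2, 5 without GFP control replicates 1 or 2, and 6 without GFP control replicate 3. CLSPN changed by -0.62 (adjusted p 0.0347) and MCM4 by -0.54 (adjusted p 0.0134), calls that held in 2 and 4 of the 6 fits with 1 array left out. CCNE1, cyclin E1, rose by 0.58 (adjusted p 0.00652), a call that held in all 6 such fits. A log2 change over 0.5 in size was seen in 7 of the 47 S-phase genes and 11 of the 110 further mitosis genes, against 1 of the 45 members. No test was made of these differences between lists.

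**Figure D4:**
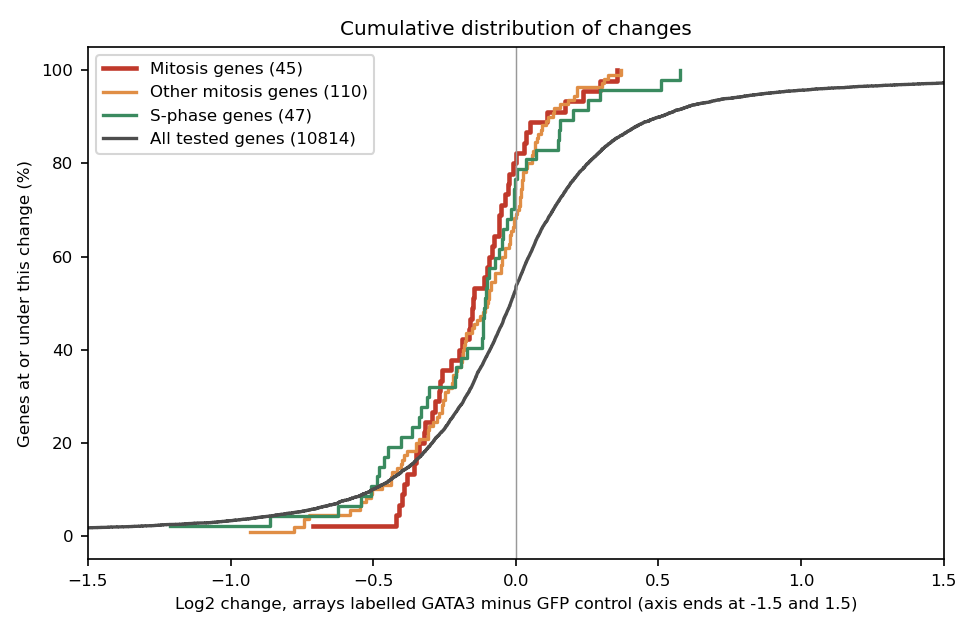
Cumulative share of genes, in percent, against log2 change in the arrays labelled GATA3 minus the GFP control, for the 45 mitosis genes, 110 further mitosis genes, 47 S-phase genes and all 10814 tested genes. The curves of the 3 cell cycle lists lie left of that of all genes around 0 (medians -0.15, -0.10, -0.11 and -0.02), and 1 mitosis gene lies past 0.5 in size.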

How the data were processed

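RNA was labelled with biotin, per the labels' protocols, and hybridised to single-colour Affymetrix arrays, 3 per group. The authors made the deposited values, read here as log2, with GCRMA, per the submitters' processing notes. Its version is not given in the sources used here, and no header or label states the scale, which was taken from the range of the values. The common floor was 2.16. They were not scaled further, and 62 control probe sets were left out. Probe sets over 4 in at least 3 of 6 arrays were tested (23785), and each gene was taken at the brightest of these by mean value. The suffixes _s_at and _x_at mark probes that can match several transcripts or genes.

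The groups were compared with limma 3.58.1 (R 4.3.3), using lmFit and eBayes with an intensity trend and no covariates. Adjustment was by Benjamini-Hochberg over all tested probe sets at 0.05. The fit was tested on simulated data, with log2 changes of 0.3, 0.5 and 1 given to 80, 80 and 40 of 23785 probe sets. It recovered 1.25%, 10% and 47.5% of them. Far fewer probe sets changed there than were called here, which makes the adjustment stricter, so these shares do not carry over directly. A member that did not pass is not thereby shown to be unchanged. Members and lists were chosen with earlier results of these data known. By rule, every member is accounted for. Values per array are given for the 3 largest called changes in each direction, for MKI67, TOP2A, CCNB1, CDK1, PLK1, AURKA, FOXM1 and BUB1, and for members with calls in opposite directions. Other members given per array, and the genes shown among the up to 3 largest called changes of each other list, were picked after their values were seen. Alternatives were other normalizations, filters, variance models, array weights, probe set rules, a replicate block and each array left out. The number of arrays limits the precision. Protein sequences were not used here.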

Additional observations from a re-analysis of the deposited data

How the results depend on the processing

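The lean of mitosis genes towards lower values kept its sign under all 16 alternatives, with a median log2 change of -0.12 after cyclic loess, -0.11 with array weights and -0.17 to -0.12 with 1 array left out. Counts of calls moved more. Higher members numbered 2 after quantile normalization, cyclic loess, a common 75th percentile or the replicate block, 3 with the mean of a gene's probe sets, 4 with array weights and 0 without a filter on low values. With 1 array left out they numbered 0 to 2. Lower members numbered 22 with array weights, whose fit stopped before convergence, 7 without a filter, 6 among the 32 that have a probe set with the suffix _at, and 6 to 11 with 1 array left out. Further mitosis genes were 4 higher and 15 lower without a filter, 41 lower with array weights, 4 higher with the replicate block, and 2 to 7 higher and 13 to 30 lower with 1 array left out. S-phase genes were 5 lower without a filter, 6 higher and 23 lower with array weights, and 5 to 12 lower with 1 array left out. Over all tested probe sets, 1767 were lower without a filter, 5195 higher and 6642 lower with array weights, and 2106 lower with the replicate block. With 1 array left out 1796 to 3581 were higher and 1801 to 3752 lower. Some of these fits had fewer arrays or more probe sets, and the cause of the shifts was not tested.

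Members with changes near 0 turned sign, and no value of the turned sign passed. CDK1 was at -0.0066 after quantile normalization and at -0.029 to 0.034 with 1 array left out. NUSAP1 was at 0.020 after cyclic loess, 0.018 with a common 75th percentile, 0.062 with the mean of probe sets, and -0.036 to 0.019 with 1 array left out. KIF23 was at 0.0045 after cyclic loess, 0.00059 with a common 75th percentile, 0.075 with array weights, and -0.085 to 0.018 with 1 array left out. PRC1 was at 0.0059, 0.0033 and 0.0072 in the same settings, and at -0.044 to 0.012 with 1 array left out. CCNB1 was at -0.022 with array weights, -0.068 with the mean of probe sets, and -0.0070 to 0.090 with 1 array left out. With the suffix _at alone CCNB1 was at -0.18, which is the value of its other probe set, 228729_at. AURKA was at 0.022 and PTTG1 at -0.095 with array weights, and PTTG1 at -0.059 to 0.092 with 1 array left out. BIRC5 was at 0.076 with the mean of probe sets and -0.18 to 0.021 with 1 array left out, where its lowest value, without GATA3 replicate 3, passed (adjusted p 0.0445). Whether the replicate numbers pair the arrays is not known. Deviations from the group means correlated at -0.135, 0.159 and -0.109 between arrays of the same number. Between arrays of unlike number the correlations ran from -0.253 to 0.228. With 3 arrays per group these correlations cannot decide the question. With the replicate block, 8 members were lower and 2 higher, with the calls of CDC25B (adjusted p 0.0510), TTK (0.0879), AURKB (0.0827) and KIF2C (0.0718) lost and those of BUB3 (0.0207) and MAD2L1 (0.0486) gained.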

Other observations

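Of the 91 member probe sets, 10 were not tested because they lay mostly under the detection level, and in several of them GATA3 replicate 3 alone read higher. The CDK1 probe set 231534_at read 3.09, 3.30 and 6.62 in the arrays labelled GATA3 and 3.07, 2.90 and 3.41 in the GFP control. The BUB1 probe set 216275_at read 3.40, 3.40 and 4.93 in the arrays labelled GATA3 and 3.40 on each GFP control array, and the BUB3 probe set 229827_at 2.63, 2.63 and 4.36 in the arrays labelled GATA3 and 2.63 on each GFP control array. A tested probe set of BIRC5, 1555826_at, showed the same, with 7.23, 7.44 and 10.61 in the arrays labelled GATA3 and 7.61, 7.77 and 7.50 in the GFP control. The brightest BIRC5 probe set read 11.63, 11.59 and 11.99 in the arrays labelled GATA3 and 11.79, 11.73 and 11.84 in the GFP control.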
